A study of Mus musculus with 12 samples.

Results

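The genes described here are the nuclear-encoded genes of oxidative phosphorylation measured in mouse kidney: 83 of the 18193 genes with a probe set of their own on the array. They were taken by symbol, as those beginning with Nduf (complex I, assembly factors left out), Sdha to Sdhd (complex II), Uqcr (complex III), Cox4 to Cox8 (complex IV) and Atp5 (complex V), plus Cycs, cytochrome c, and no measured value entered that choice. Complex I had 36 members, complex II 4, complex III 8, complexes IV and V 17 each, and cytochrome c 1. Kidneys came from 12 male F1 (C57BL6 X 129/SvEv) mice aged 2.5 months, all on the NS diet, with 1 array per mouse and 3 mice in each of 4 groups. The groups were WT mice given ANG II, WT mice at baseline, AGTR1A-KO mice given ANG II and AGTR1A-KO mice at baseline. ANG II (angiotensin II), the hormone that raises blood pressure and sodium retention, was infused for 2 days at 1 ug/kg/min. The KO mice lack the AT1A receptor, the main receptor for the hormone in mouse kidney, and the labels name no tissue to which its loss was limited. The study asked which kidney genes respond to the hormone through this receptor.

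Oxidative phosphorylation makes most of the ATP of kidney tubules. Complexes I and II pass electrons from NADH and succinate to ubiquinone, complex III passes them to cytochrome c, and complex IV passes them to oxygen, while complexes I, III and IV pump protons whose return through complex V drives ATP synthesis. The subunits described here are encoded in the nucleus, made in the cytosol and imported into mitochondria, where they join the subunits encoded by mitochondrial DNA. The proximal tubule, which reabsorbs most filtered sodium and glucose, is among the kidney segments richest in mitochondria.

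Each value below is a ratio, set so that the median of the 12 kidneys is 1 for every probe set, and the ratios show changes of a gene but not whether one gene is expressed more than another. A gene with several probe sets has the mean of their log2 ratios, turned back to a ratio. A change was called when its adjusted p, from limma over all 18193 genes, was under 0.05, and "rose" and "fell" are used only of called changes. Changes are given as log2 differences ± the moderated standard error, with n = 3 per group.

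The median log2 ratio of the 83 genes lay between -0.140 and -0.0801 on the 3 WT ANG II arrays, against 0.0144 to 0.0697 on the 3 WT baseline arrays. On the KO ANG II arrays it lay between 0.0368 and 0.0724, against -0.0559 to 0.00372 on the KO baseline arrays. All 3 WT ANG II arrays were therefore below all the other 9, and they did not overlap with any other group. The median over all genes stayed between -0.0277 and 0.0172 on the 12 arrays. The mean 3′ minus 5′ log2 ratio of the Actb and Gapdh control probe sets, a sign of RNA quality, was also set apart in the same group: 0.0362 to 0.0665 on the WT ANG II arrays, against -0.0175 to -0.00736 on the WT baseline arrays, and between -0.0402 and 0.011 on the KO arrays of both conditions. Of these controls only Actb set the group apart, at 0.0747 or more on the WT ANG II arrays and at most 0.0345 on the other 9. Gapdh did not, with -0.0176, 0.0584 and -0.0601 on the WT ANG II arrays, a range that spans the other 9. The part of RNA quality in the results below was not tested. Agtr1a, the targeted gene, had ratios of 0.917 to 1.05 in KO ANG II and 0.923 to 1.04 in KO baseline kidneys, against 1.36 to 1.40 in WT baseline kidneys. In WT ANG II kidneys the ratio of Agtr1a was 0.957 to 1.00, within the range of the KO kidneys, and a ratio cannot show how near to no signal that is. Where this probe set sits relative to the deletion is not given in the labels, so its level is a weak check of the KO labels.

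**Figure D1:**
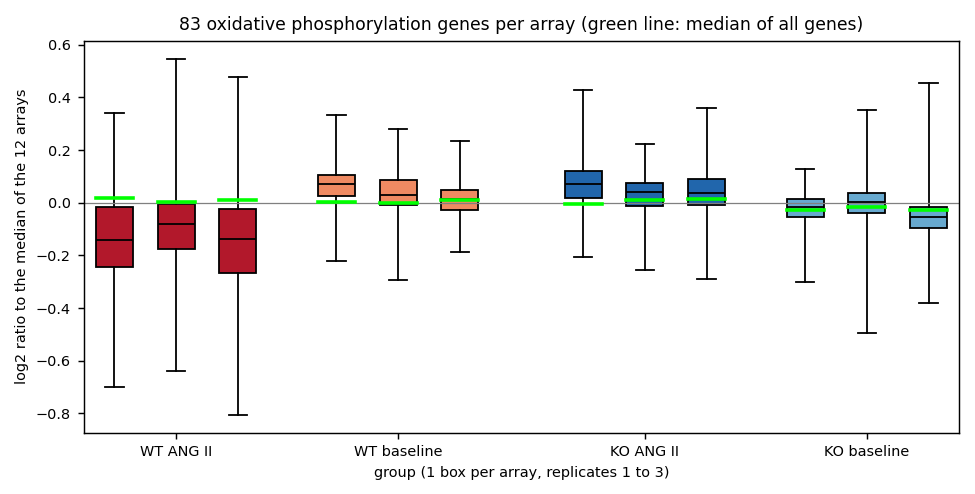
Distribution of the log2 ratio of the 83 genes on each of the 12 arrays, by group; boxes give the quartiles and the median, whiskers the full range, and the green line the median of all genes. The WT ANG II boxes have medians of -0.140 to -0.0801, below those of the other 9 arrays, while the green lines stay between -0.0277 and 0.0172.

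A large share of these genes was expressed at a lower level in WT kidneys after ANG II infusion than at baseline. Of the 83 genes, 39 fell and 5 rose, against a background of 15.6% of all genes that fell and 10.9% that rose; the 39 make 47.0% of the members. The median log2 change was -0.18, against 0.03 over all genes, and 68 of the 83 changes were below 0. The arrays of the 2 groups did not overlap, with ANG II lower, for 50 members, a pattern shown by 21.3% of all genes, and with ANG II higher for 10, a pattern shown by 19.8% of all genes. By complex, 17 of 36 genes of complex I, 2 of 4 of complex II, 4 of 8 of complex III, 6 of 17 of complex IV and 9 of 17 of complex V fell, as did cytochrome c. The 5 genes that rose were 4 genes of complex IV and 1 of complex V. The count depended on single kidneys: without WT baseline replicate 1, 23 fell and 4 rose. When the arrays were quantile normalized again, 30 fell and 0 rose, so the 5 rises were lost there while their log2 changes stayed above 0. In these whole-kidney samples, fewer cells of a type and less RNA per cell cannot be told apart.

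**Figure D2:**
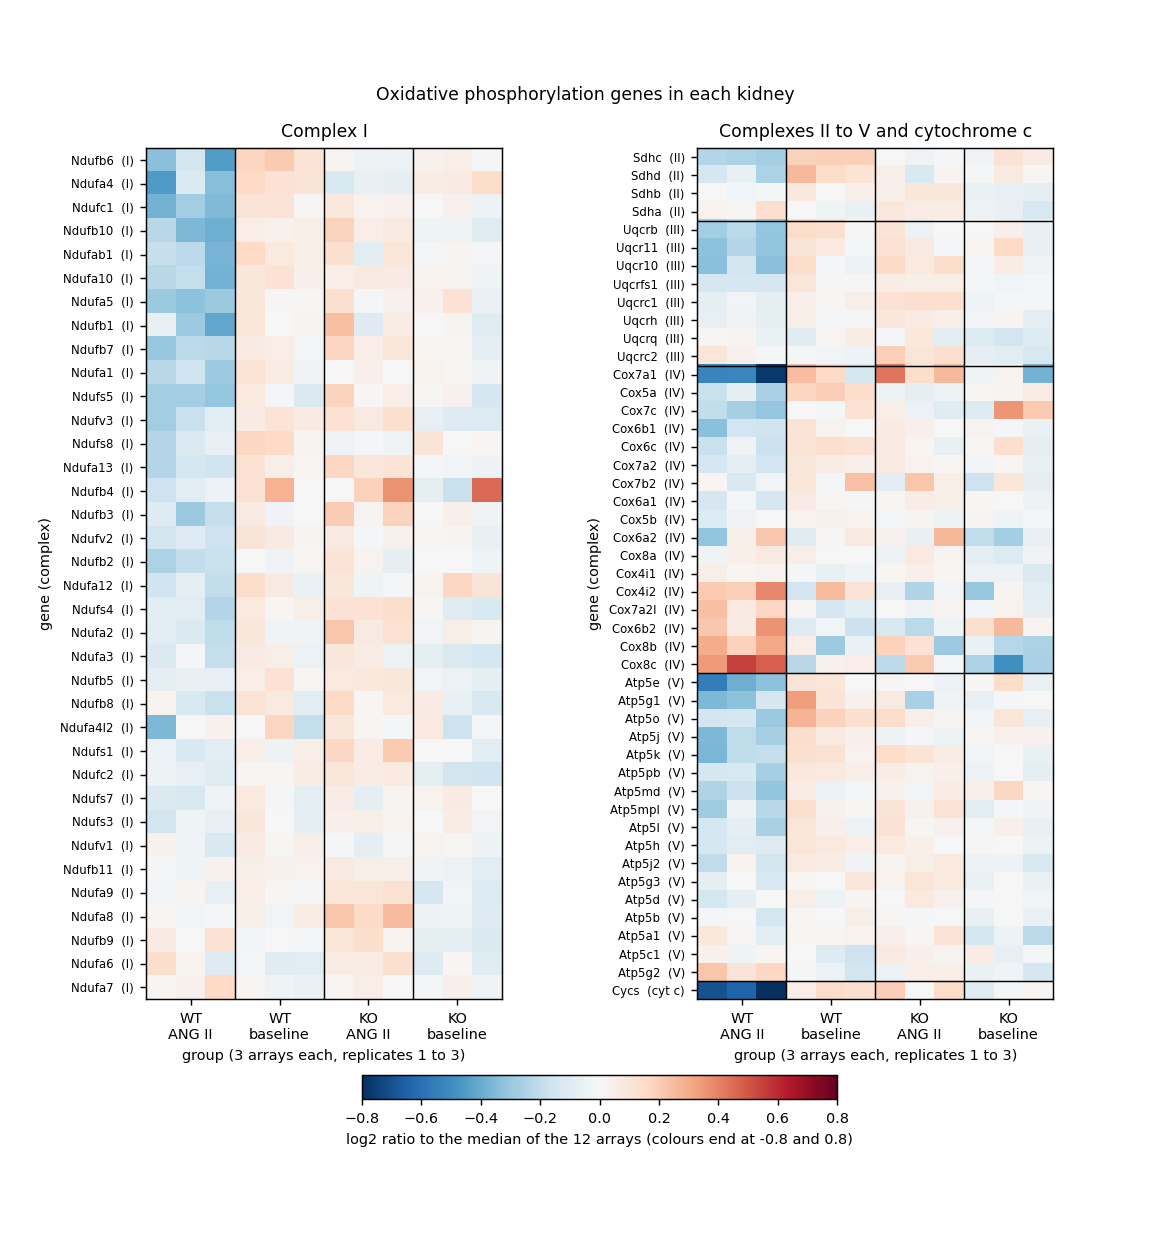
Log2 ratio of each of the 83 genes (rows, grouped by complex) on each of the 12 arrays (columns, by group), blue below and red above the median of the 12 arrays. The WT ANG II columns are blue for most rows of every complex, while Cox8c, Cox8b, Cox6b2, Cox7a2l and Atp5g2 are red there.

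Cycs had the largest fall. It encodes somatic cytochrome c, the soluble carrier of electrons between complexes III and IV. Its ratios were 0.616, 0.642 and 0.572 in the WT ANG II kidneys, against 1.04, 1.11 and 1.09 in the WT baseline kidneys. The highest WT ANG II value lay far below the lowest WT baseline value, and the log2 change was -0.82 ± 0.07 (adjusted p = 2.23e-05), or 1.77-fold lower. All 4 of its probe sets fell, by 0.63 to 1.05 on the log2 scale. In the KO kidneys Cycs had 1.15, 1.00 and 1.11 in the KO ANG II kidneys, against 0.934, 1.00 and 1.01 in the KO baseline kidneys. These KO groups overlapped, with a log2 change of 0.14 ± 0.07 (adjusted p = 0.193).

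Cox7a1, the subunit VIIa isoform of complex IV best known from heart, skeletal muscle and brown fat, fell next most, with ratios of 0.693, 0.697 and 0.586 in the WT ANG II kidneys, against 1.19, 1.11 and 0.908 in the WT baseline kidneys. The groups did not overlap, and the log2 change was -0.69 ± 0.13 (adjusted p = 0.00242), read by 1 probe set. In KO kidneys its ratios were 1.34, 1.10 and 1.20 in the KO ANG II kidneys, against 0.982, 1.02 and 0.768 in the KO baseline kidneys. There the ANG II kidneys were all higher than the baseline kidneys, but the change of 0.40 ± 0.13 was not called (adjusted p = 0.0563).

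**Figure D3:**
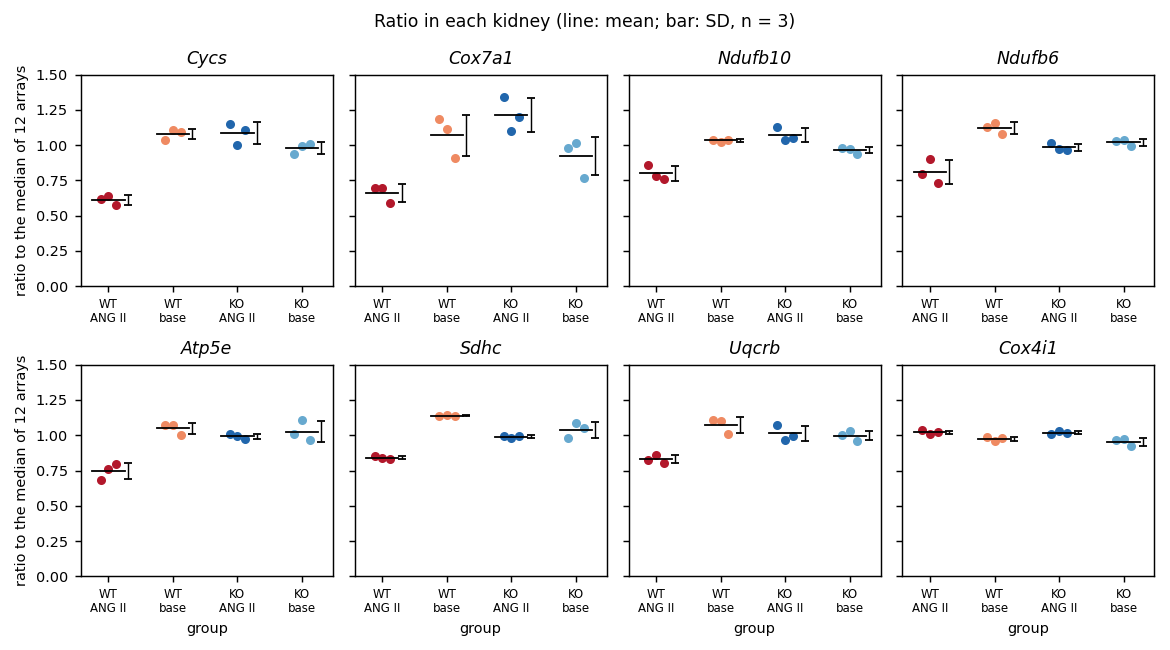
Ratios of 8 genes in each kidney (points), with the group mean (line) and SD (bar, n = 3). Cycs, Cox7a1, Ndufb10, Ndufb6, Atp5e, Sdhc and Uqcrb are lowest in WT ANG II kidneys, with no overlap with WT baseline kidneys, whereas Cox4i1 is not.

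Because many of these genes moved together, their promoters were searched for letters bound by factors known to control mitochondrial genes. RefSeq promoter windows (build GRCm38.p6, 250 bases before to 50 after the transcription start) were matched by gene identifier for 68 of the 83 genes, in 73 windows. Windows of 4 of the genes with the largest falls are shown, from cytochrome c, complex IV, complex I and complex V, with the motif matches in capitals.
Cycs, chr6:50566520-50566819, minus strand: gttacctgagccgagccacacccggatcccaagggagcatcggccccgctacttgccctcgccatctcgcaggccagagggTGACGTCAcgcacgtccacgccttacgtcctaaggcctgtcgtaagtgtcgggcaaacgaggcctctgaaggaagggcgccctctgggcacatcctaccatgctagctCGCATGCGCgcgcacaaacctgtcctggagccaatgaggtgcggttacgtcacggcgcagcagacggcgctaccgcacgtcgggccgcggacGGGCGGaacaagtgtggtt
Cox7a1, chr7:30183921-30184220, plus strand: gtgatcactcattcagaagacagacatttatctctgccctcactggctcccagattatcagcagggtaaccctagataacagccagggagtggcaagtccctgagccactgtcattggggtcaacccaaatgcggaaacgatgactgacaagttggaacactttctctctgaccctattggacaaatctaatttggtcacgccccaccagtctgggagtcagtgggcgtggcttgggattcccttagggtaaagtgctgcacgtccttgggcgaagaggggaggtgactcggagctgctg
Ndufb6, chr4:40279372-40279671, minus strand: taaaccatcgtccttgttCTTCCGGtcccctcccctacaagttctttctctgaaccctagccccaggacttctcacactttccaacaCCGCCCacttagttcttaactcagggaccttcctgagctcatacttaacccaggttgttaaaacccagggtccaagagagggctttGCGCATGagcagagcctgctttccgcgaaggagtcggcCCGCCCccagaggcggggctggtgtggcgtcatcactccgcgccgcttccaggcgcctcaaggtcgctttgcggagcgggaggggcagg
Atp5e, chr2:174464052-174464351, minus strand: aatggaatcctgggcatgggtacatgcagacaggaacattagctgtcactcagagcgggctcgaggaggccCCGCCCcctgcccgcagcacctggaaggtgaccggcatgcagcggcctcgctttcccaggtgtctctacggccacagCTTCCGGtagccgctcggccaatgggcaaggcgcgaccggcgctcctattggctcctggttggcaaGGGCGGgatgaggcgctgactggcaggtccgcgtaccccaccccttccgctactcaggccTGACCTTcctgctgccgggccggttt
The Cycs window holds a cAMP response element (CRE, TGACGTCA) that begins 169 bases before the start, a site of nuclear respiratory factor 1 (NRF1, GCGCATGCG) 61 bases before it on the opposite strand, and an SP1 box (GGGCGG) after the start; sites of both the first and second kind are known from the rat cytochrome c promoter. Ndufb6 holds the shorter NRF1 letters GCGCATG, an ETS site (CCGGAAG, bound by GABP) and 2 SP1 boxes, and Atp5e holds an ETS site, 2 SP1 boxes and an ERR site (AAGGTCA, bound by oestrogen-related receptors) 25 bases into the transcript. The Cox7a1 window holds none of the 7 motifs searched, which says only that these letters are not in it.

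Across the family, searched on both strands with exact letters, NRF1 sites were present in 8 of 73 windows (10.96%), against 1.75% of all 32851 windows in the table. The shorter NRF1 letters, which every full NRF1 site also contains, were in 17.81% of the windows of these genes against 3.909% of all. ETS sites were in 23.29% against 8.858%, ERR sites in 10.96% against 4.718%, YY1 sites (AAGATGG) in 13.7% against 6.338%, CRE in 5.479% against 1.79% and SP1 boxes in 42.47% against 35.66%. Between the members, ETS sites were in 11 of 37 windows of genes that fell in WT kidneys and 6 of 36 windows of the other members. In the same order, CRE was in 4 and 0, ERR sites in 5 and 3, and SP1 boxes in 17 and 14. Full NRF1 sites were in 3 and 5, the shorter NRF1 letters in 4 and 9, and YY1 sites in 4 and 6. These are counts of letters, given without a test.

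In complex I, which oxidizes NADH, 14 of 28 accessory subunits and 2 of 6 core subunits fell in WT kidneys, with median log2 changes of -0.21 and -0.10. Accessory subunits surround the core and are needed for assembly and stability, while the core carries the flavin and the iron-sulfur clusters. Ndufb6, an accessory subunit of the membrane arm, had ratios of 0.792, 0.905 and 0.734 in the WT ANG II kidneys, against 1.13, 1.16 and 1.08 in the WT baseline kidneys, with a log2 change of -0.47 ± 0.08 (adjusted p = 0.000996). Ndufc1, another membrane-arm accessory subunit, had 0.770, 0.826 and 0.783 in the WT ANG II kidneys, against 1.07, 1.08 and 1.00 in the WT baseline kidneys, and its log2 change was -0.41 ± 0.06 (adjusted p = 0.000596). For both genes the WT groups were far apart compared with the spread within them. Ndufb10, likewise of the membrane arm, had 0.859, 0.780 and 0.762 in the WT ANG II kidneys, against 1.04, 1.02 and 1.03 in the WT baseline kidneys (log2 change -0.37 ± 0.06, adjusted p = 0.0017). Of the core subunits, Ndufs8 (-0.25 ± 0.07) and Ndufv2 (-0.21 ± 0.06) fell, and Ndufv1, which binds NADH and flavin, had a change of -0.08 ± 0.06 that was not called (adjusted p = 0.331). Ndufa4, named as a complex I subunit but now assigned to complex IV, fell (-0.43 ± 0.08), while its homologue Ndufa4l2, known as a hypoxia-induced gene, had -0.11 ± 0.11 (adjusted p = 0.501).

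Complex II, which oxidizes succinate and is also an enzyme of the TCA cycle, split by subunit role. Both membrane anchors fell and neither catalytic subunit was called. Sdhc, an anchor, had ratios of 0.850, 0.840 and 0.829 in the WT ANG II kidneys, against 1.14, 1.14 and 1.14 in the WT baseline kidneys, and a log2 change of -0.44 ± 0.06 (adjusted p = 0.000286). Sdhd, the other anchor, had 0.910, 0.958 and 0.839 in the WT ANG II kidneys, against 1.20, 1.11 and 1.08 in the WT baseline kidneys (log2 change -0.32 ± 0.07, adjusted p = 0.00757). The anchors were lower in every WT ANG II kidney than in any WT baseline kidney. Sdha, the flavoprotein that binds succinate, had 1.02, 1.01 and 1.10 in the WT ANG II kidneys, against 1.00, 0.976 and 0.960 in the WT baseline kidneys (log2 change 0.09 ± 0.06, adjusted p = 0.271). Sdhb, the iron-sulfur subunit, changed by -0.05 ± 0.05 (adjusted p = 0.496), so no change of either catalytic subunit could be told from the spread of the fit. The difference between anchors and catalytic subunits was itself not tested. With 1 probe set per gene the fall of Sdhd was not called (adjusted p = 0.0666).

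In complex III, 3 of 5 small subunits fell (median log2 change -0.30) and 1 of the 3 core and Rieske subunits did (median -0.09). Uqcrb, a small subunit next to the ubiquinone site, had ratios of 0.828, 0.860 and 0.807 in the WT ANG II kidneys, against 1.11, 1.10 and 1.01 in the WT baseline kidneys. Its groups did not overlap and its log2 change was -0.36 ± 0.07 (adjusted p = 0.00221). Uqcr11 (-0.35 ± 0.07) and Uqcr10 (-0.30 ± 0.07) were the other small subunits that fell, though Uqcr10 was not called without WT baseline replicate 1 (adjusted p = 0.054) or in a fit of the 6 WT arrays alone with the replicate number as a block (0.0509). Uqcrfs1, the Rieske iron-sulfur protein, fell (-0.17 ± 0.05, adjusted p = 0.0343). The core subunits had changes of -0.09 ± 0.05 for Uqcrc1 and 0.07 ± 0.06 for Uqcrc2, neither called.

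Complex IV, cytochrome c oxidase, was mixed. Of its 9 widely expressed subunits 5 fell and 0 rose, whereas of its 7 tissue-restricted isoforms 1 fell and 3 rose, with the remaining gene, Cox7a2l, rising. Cox5a, a structural subunit, fell (-0.34 ± 0.06, adjusted p = 0.00214), with ratios of 0.884, 0.951 and 0.835 in the WT ANG II kidneys, against 1.13, 1.14 and 1.10 in the WT baseline kidneys. Cox6b1, Cox6c, Cox7a2 and Cox7c also fell, by 0.19 to 0.29 on the log2 scale. The common isoform Cox4i1 had 1.03, 1.01 and 1.02 in the WT ANG II kidneys, against 0.989, 0.960 and 0.977 in the WT baseline kidneys, a log2 change of 0.07 ± 0.05 that was not called (adjusted p = 0.363).

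Paralogues within complex IV differed in their calls, though no difference between paralogues was itself tested. The ratios do not show whether the tissue-restricted isoforms had signal above background in kidney. In subunit VIb, Cox6b1 fell (-0.26 ± 0.07, adjusted p = 0.0139) and Cox6b2, the testis isoform, rose (0.31 ± 0.09, adjusted p = 0.0227), with ratios for Cox6b2 of 1.16, 1.05 and 1.28 in the WT ANG II kidneys, against 0.932, 0.986 and 0.889 in the WT baseline kidneys. In subunit VIIa, Cox7a1 and Cox7a2 fell and Cox7a2l, a factor that joins complexes III and IV into supercomplexes, rose (0.23 ± 0.07, adjusted p = 0.0201). In subunit VIII, Cox8a had 0.01 ± 0.06 (adjusted p = 0.934), while Cox8b, the heart and muscle isoform, rose (0.36 ± 0.12, adjusted p = 0.0421) and Cox8c, the testis isoform, rose most (0.50 ± 0.11, adjusted p = 0.0076). Cox8c had ratios of 1.27, 1.46 and 1.39 in the WT ANG II kidneys, against 0.857, 1.02 and 1.04 in the WT baseline kidneys. Its groups did not overlap, but its baseline spread was wide. Cox6a1 (-0.12 ± 0.06) and Cox6a2 (-0.01 ± 0.12), and Cox4i2 (0.19 ± 0.11), were not called. These calls depended on single kidneys: Cox6b2 was lost without WT ANG II replicate 3 (adjusted p = 0.0907) and without WT baseline replicates 1 (0.068) or 3 (0.0696), Cox7a2l without WT ANG II replicate 1 (0.0511) and WT baseline replicates 2 (0.0716) or 3 (0.0541), and Cox8b without any 1 of WT ANG II replicates 1 to 3 (0.0601 to 0.111), WT baseline replicates 2 (0.15) or 3 (0.0657) and KO baseline replicates 2 (0.0529) or 3 (0.0505). The fall of Cox6b1 was lost without WT baseline replicate 1 (0.0618), and that of Cox7a2 without WT ANG II replicate 3 (0.0747) or WT baseline replicates 1 (0.095) or 2 (0.0618). On the 6 WT arrays alone with the replicate block, Cox6b1 (adjusted p = 0.0669), Cox6b2 (0.0637) and Cox7a2 (0.0875) were not called. After quantile normalization none of the rises was called, with adjusted p of 0.0648 for Cox6b2, 0.0725 for Cox7a2l, 0.151 for Cox8b and 0.0504 for Cox8c.

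In complex V, the ATP synthase, all 4 genes of the peripheral stalk fell (median log2 change -0.30), as did 3 of 5 small membrane subunits (median -0.24) and 1 of 5 subunits of the F1 head. The stalk holds the catalytic head still against the turning rotor. Atp5o, the stalk protein that sits on top of the head, had ratios of 0.899, 0.908 and 0.812 in the WT ANG II kidneys, against 1.21, 1.13 and 1.09 in the WT baseline kidneys (log2 change -0.39 ± 0.07, adjusted p = 0.00241). Its 2 probe sets differed, at -0.11 and -0.67, and with 1 probe set per gene it was not called (adjusted p = 0.254). Atp5e, the epsilon subunit of the F1 head, had 0.681, 0.764 and 0.795 in the WT ANG II kidneys, against 1.07, 1.07 and 1.00 in the WT baseline kidneys, and fell (-0.49 ± 0.07, adjusted p = 0.000709). The catalytic head genes Atp5a1 (-0.02 ± 0.07) and Atp5b (-0.07 ± 0.06) were not called. Atp5k, a small membrane subunit, fell (-0.35 ± 0.07, adjusted p = 0.00291), but not with 1 probe set per gene (0.0631).

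The 3 genes that encode the identical mature c subunit of the rotor ring went different ways. Atp5g1 fell (-0.43 ± 0.10, adjusted p = 0.00777), with ratios of 0.778, 0.797 and 0.910 in the WT ANG II kidneys, against 1.26, 1.08 and 1.02 in the WT baseline kidneys. Atp5g2 rose (0.23 ± 0.06, adjusted p = 0.0194), with 1.16, 1.07 and 1.12 in the WT ANG II kidneys, against 0.989, 0.968 and 0.904 in the WT baseline kidneys. Atp5g3 had -0.10 ± 0.06 and was not called (adjusted p = 0.215). Of the 3 probe sets of Atp5g2, 1 was called, and the rise was lost without WT baseline replicate 3 (adjusted p = 0.0683), with 1 probe set per gene (0.529) and on the 6 WT arrays alone with the replicate block (0.058).

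Of the 50 members with several probe sets, 32 had all of them changed in one direction in WT kidneys. Among the 24 of these that fell by their mean, 22 had all probe sets below 0, a count that the choice by the mean favours. Ndufc2 and Uqcrc2 each had a probe set that rose and at least 1 that fell in WT kidneys, so their gene means hide opposite readings. At the level of single probe sets, 66 of the 173 fell (38.2%) and 11 rose (6.36%), against 13.3% and 10.9% of all 45037 probe sets. Many of these genes have processed pseudogenes, and 10 further probe sets that name a member together with another gene were left out of the means.

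In KO kidneys the same infusion gave no called fall of a gene. Of the 83 genes, 4 rose and 0 fell at an adjusted p under 0.05, against a background of 5.82% of all genes that rose and 7% that fell. An unadjusted limma p under 0.05 was found for 20 of the 83, against 30.7% of all genes, so that count is no excess. The median log2 change was 0.08, against 0.05 over all genes. In 36 genes every ANG II kidney was above every baseline kidney, a pattern shown by 23% of all genes, and in 5 genes below, a pattern shown by 15.4%. The 4 that rose were Ndufa8 (0.27 ± 0.06, adjusted p = 0.0123), Uqcrc2 (0.24 ± 0.06, 0.0192), Ndufc2 (0.21 ± 0.06, 0.0303) and Ndufa9 (0.19 ± 0.06, 0.0465), which are accessory subunits of complex I apart from Uqcrc2, a core subunit of complex III. Ndufa8 had ratios of 1.17, 1.11 and 1.19 in the KO ANG II kidneys, against 0.973, 0.976 and 0.933 in the KO baseline kidneys, with every ANG II kidney above every baseline kidney. These calls changed with single arrays and settings: without KO ANG II replicate 3 none remained called, without KO ANG II replicate 1 or 2 there were 2, without KO baseline replicate 2 or 3 there was 1, and without WT ANG II replicate 3 there were 7. The single probe sets called 6 genes rising and 1 falling, and array weights called 11 rising and 1 falling.

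**Figure D4:**
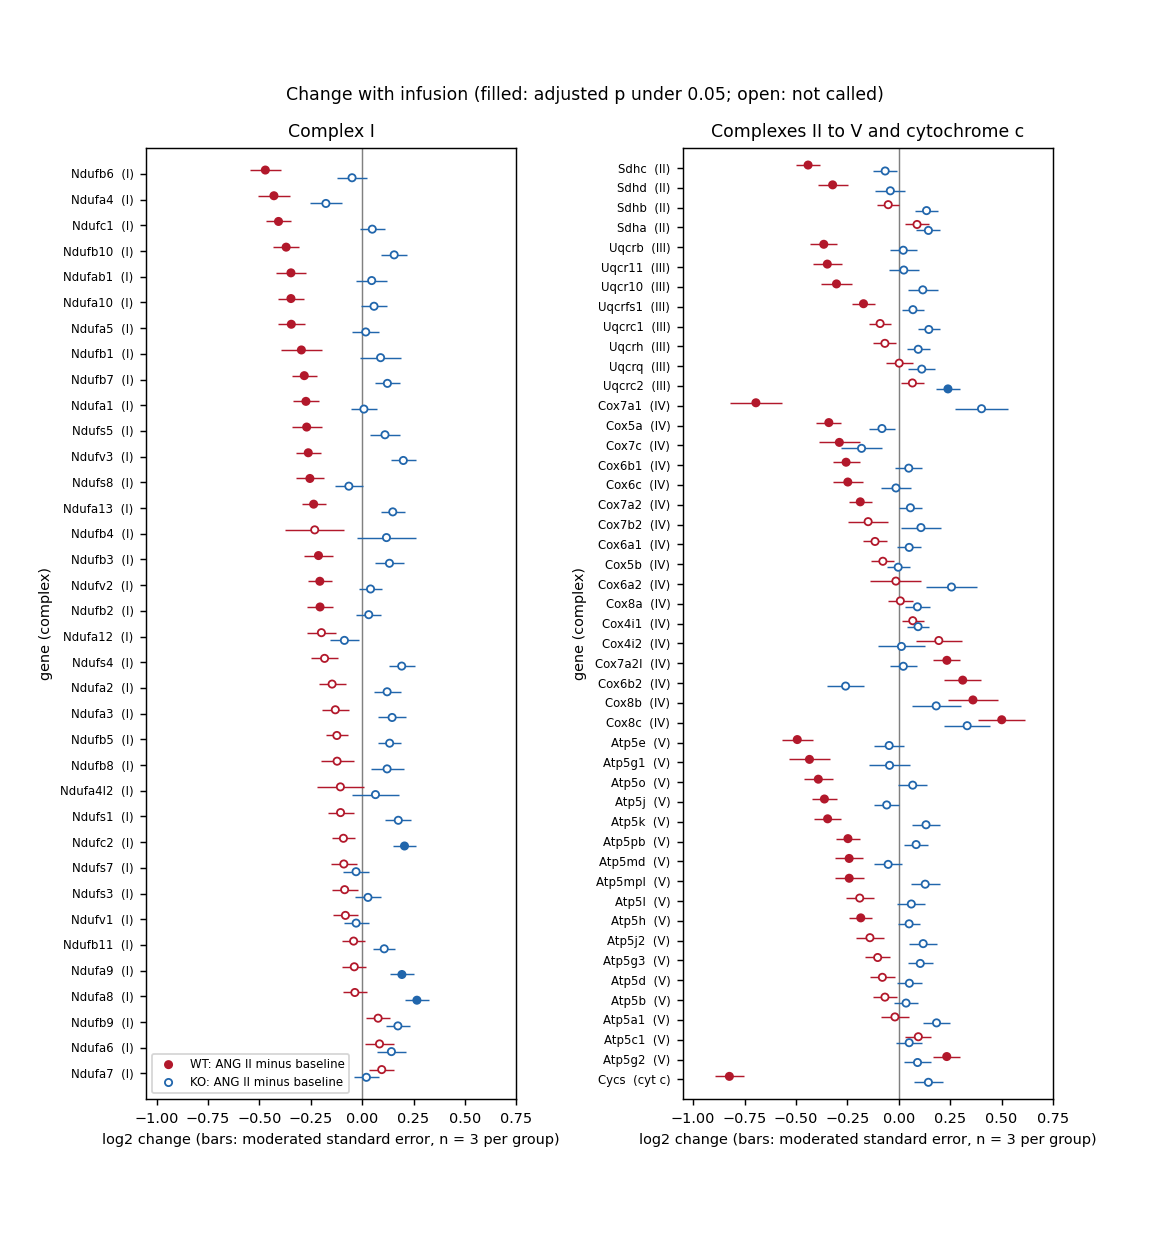
Log2 change with infusion for each of the 83 genes, ANG II minus baseline, in WT (red) and KO kidneys (blue), with the moderated standard error (n = 3 per group) and filled symbols for an adjusted p under 0.05. In WT kidneys 39 filled symbols lie left of 0 and 5 right of it; in KO kidneys 4 filled symbols lie right of 0 and none left.

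The test of the difference between the 2 responses, KO minus WT, called 29 genes with a higher response in KO kidneys and 1 lower, against a background of 8.86% and 4.12% of all genes. The median difference was 0.25, against 0.01 over all genes. Of the 39 genes that fell in WT kidneys, none was called in KO kidneys, 27 had a KO change above 0, and 25 were among the 29. The overlap of 25 is favoured by the choice, because the WT response enters both the fall and the difference. A KO change above 0 was found for 66 of all 83 members and 11129 of all 18193 genes. Cox7a1 had the largest difference (1.10 ± 0.18, adjusted p = 0.00202), followed by Cycs (0.97 ± 0.10, adjusted p = 0.000117), Ndufb10 (0.53 ± 0.09), Atp5k (0.48 ± 0.09) and Ndufv3 (0.46 ± 0.09), the last an accessory subunit of the peripheral arm. In KO kidneys Ndufb10 had ratios of 1.13, 1.04 and 1.05 in the KO ANG II kidneys, against 0.976, 0.975 and 0.937 in the KO baseline kidneys, and Sdhc had 1.00, 0.980 and 0.993 in the KO ANG II kidneys, against 0.979, 1.08 and 1.05 in the KO baseline kidneys. Every KO ANG II kidney was above every KO baseline kidney for Ndufb10, whereas the KO groups overlapped for Sdhc. Atp5e had 1.01, 1.00 and 0.970 in the KO ANG II kidneys, against 1.01, 1.11 and 0.963 in the KO baseline kidneys, which also overlapped. The exception was Cox6b2, whose difference was -0.57 ± 0.13 (adjusted p = 0.0109), with a KO change of -0.26 ± 0.09 (adjusted p = 0.0725). By complex the higher calls were 16 in complex I, 1 in complex II, 3 in complex III, 2 in complex IV, 6 in complex V and cytochrome c. Without KO ANG II replicate 1 the total fell to 18 genes, and without WT baseline replicate 1, KO ANG II replicate 3, KO baseline replicate 1 or KO baseline replicate 3 it was 19.

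At baseline no member was called between genotypes, against a background of 5.13% of all genes higher and 2.94% lower in KO kidneys. An unadjusted limma p under 0.05 was found for 8 of the 83 members, against 25.4% of all genes. The median KO minus WT change was -0.07, against -0.04 over all genes, and in 37 genes every KO baseline kidney was below every WT baseline kidney, a pattern shown by 21.1% of all genes. Fits of single probe sets called 1 member lower, means without the less specific probe sets called 2 and array weights called 1. The 3 lowest p-values at baseline were those of Ndufv3 (-0.17 ± 0.06, adjusted p = 0.107), Ndufc2 (-0.15 ± 0.06, adjusted p = 0.111) and Atp5o (-0.19 ± 0.07, adjusted p = 0.124).

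Under infusion the genotypes differed. In KO ANG II kidneys 36 genes were higher than in WT ANG II kidneys and 3 were lower, against a background of 15.2% and 10.4% of all genes. The groups did not overlap, with KO higher, for 53 genes, a pattern shown by 21% of all genes. Cox7a1 (0.88 ± 0.13, adjusted p = 0.000456) and Cycs (0.83 ± 0.07, adjusted p = 1.06e-05) led, ahead of Ndufb10 (0.42 ± 0.06) and Atp5e (0.41 ± 0.07). The 3 lower genes were the isoforms Cox8c (-0.46 ± 0.11), Cox4i2 (-0.37 ± 0.11) and Cox6b2 (-0.34 ± 0.09). This comparison uses the same WT ANG II and KO ANG II arrays as the responses above, so it is not a separate set of evidence. Without KO ANG II replicate 1 the calls were 22 higher and 1 lower; Cox8c was not called then (adjusted p = 0.0559), Cox4i2 also not without KO ANG II replicate 2 (0.09) or WT ANG II replicate 3 (0.109), and Cox6b2 not without KO ANG II replicate 2 (0.0507) or WT ANG II replicate 3 (0.0663).

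Genes that build or express the same machinery were read from lists. Of 43 measured assembly factors, which put the complexes together, 24 fell and 0 rose in WT kidneys, against the 15.6% and 10.9% of all genes given above, with a median log2 change of -0.22. Ndufaf4, a complex I assembly factor, fell (-0.82, adjusted p = 2.92e-05), as did Sdhaf1, of complex II (-0.66, adjusted p = 0.000146), and Cox15, which makes the haem of complex IV (-0.50, adjusted p = 0.000366). In KO kidneys 6 assembly factors rose and 0 fell, against 5.82% and 7% of all genes. Of 76 genes of the mitochondrial ribosome, which translates the subunits encoded by mitochondrial DNA, 37 fell and 1 rose in WT kidneys (median -0.19). In KO kidneys 7 of the 76 rose and 0 fell, and these rises were not far above the 5.82% of all genes. Mrpl18 (-0.58), Mrpl12 (-0.43) and Mrps28 (-0.42) fell most.

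Of 24 regulators of mitochondrial gene expression, among them factors that act on mitochondrial DNA, 6 fell and 1 rose in WT kidneys. The shares of all genes were 15.6% and 10.9%. In KO kidneys 1 of the 24 rose, against 5.82% of all genes. Tfam, which packages and transcribes mitochondrial DNA, fell (-0.29 ± 0.07), as did Gabpa, the ETS factor (-0.30), Tfb1m (-0.34), Slirp (-0.42), Mterf2 (-0.55) and Pprc1, a coactivator (-0.33); Twnk, the mitochondrial DNA helicase, rose (0.24). Ppargc1a (0.06, adjusted p = 0.596), Ppargc1b (-0.12, adjusted p = 0.523), Nrf1 (0.11, adjusted p = 0.317), Esrrg (-0.15, adjusted p = 0.163) and Esrra (-0.15, adjusted p = 0.212) were not called in WT kidneys, and Esrra rose in KO kidneys (0.30). Of 14 other electron transport genes 4 fell, led by Gpd2, which feeds electrons from glycerol 3-phosphate to ubiquinone (-0.66). Of 13 TCA cycle enzymes, Cs, citrate synthase (-0.27), and Ogdh (-0.25) fell and Idh2 (0.31) rose, and of 11 nucleotide and phosphate carriers 2 fell and 1 rose. The falls in these last 2 lists were close to the 15.6% of all genes and are no result about them.

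**Figure D5:**
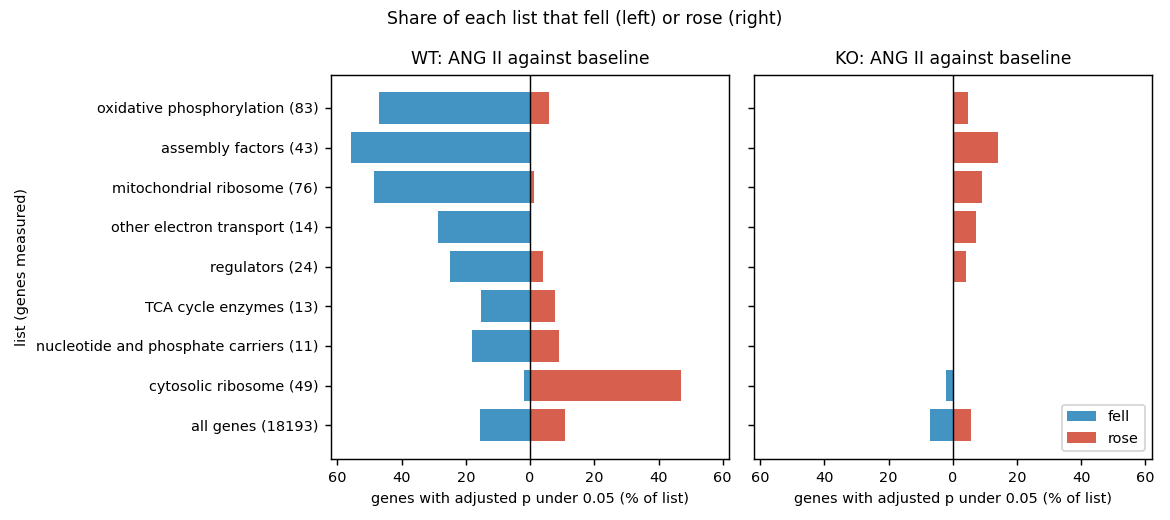
Share of each gene list that fell (left of 0) or rose (right of 0) at an adjusted p under 0.05, in WT kidneys (left panel) and KO kidneys (right panel); the bottom bar is all genes. Oxidative phosphorylation genes, assembly factors and mitochondrial ribosome genes fell in 39 of 83, 24 of 43 and 37 of 76 cases in WT kidneys, and in none in KO kidneys; cytosolic ribosome genes, a list added after the values were seen, rose in 23 of 49 cases in WT kidneys.

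Markers of kidney cell types moved as well, to be read against the 15.6% of all genes that fell and the 10.9% that rose in WT kidneys and the 7% that fell and 5.82% that rose in KO kidneys. Of 18 proximal tubule markers, 10 fell and 2 rose in WT kidneys, with a median log2 change of -0.33. Slc7a13 (-1.91), Slc22a7 (-1.83) and Gatm (-1.09) fell most, while Cubn (0.60) and Pck1 (0.86) rose. The median log2 ratio of these markers lay between -0.279 and -0.193 on the WT ANG II arrays, against 0.00724 to 0.187 on the WT baseline arrays, and between 0.0315 and 0.0952 on the KO ANG II arrays, against -0.0577 to 0.00458 on the KO baseline arrays. In KO kidneys 2 rose and 0 fell. Of 7 distal convoluted tubule markers 4 fell in WT kidneys, while 3 rose and 1 fell in KO kidneys. Of 9 endothelial markers 4 fell and 1 rose in each genotype, with array medians of -0.460 to -0.116 on WT ANG II arrays and -0.102 to 0.0510 on WT baseline arrays. Of 6 intercalated cell markers 2 rose and 0 fell in WT kidneys, with array medians of 0.117 to 0.299 on WT ANG II arrays and -0.0251 to 0.0366 on WT baseline arrays. Of 7 principal cell markers 2 fell in each genotype, with array medians of -0.295 to -0.0848 on WT ANG II arrays and -0.0589 to 0.183 on WT baseline arrays. The medians of these 3 lists did not overlap between the WT groups, lower after ANG II for endothelial and principal cells and higher for intercalated cells. Of 11 macrophage markers 5 fell in WT and 9 in KO kidneys. The macrophage median ranged from -0.749 to -0.389 on WT ANG II arrays and -0.433 to 0.0257 on WT baseline arrays, and from -0.131 to 0.335 on KO ANG II arrays and 0.869 to 1.42 on KO baseline arrays. Of 5 brown adipocyte markers 4 rose in WT kidneys, among them Ucp1 (0.37) and Pdk4 (1.89), and 1 fell in KO kidneys. Of 11 striated muscle markers none was called in WT kidneys and 1 rose in KO kidneys. Array medians of both lists were higher on WT ANG II than WT baseline arrays, without overlap. They were 0.0854 to 0.506 against -0.124 to -0.0499 for brown adipocyte and 0.0825 to 0.112 against -0.0396 to 0.0333 for striated muscle markers. Pdk4 is also made in tissues other than brown fat. The other lists had few calls in WT kidneys: 1 fall among 7 thick ascending limb, 1 among 6 podocyte and 1 among 8 vascular smooth muscle and mesangial markers, 2 rises among 7 adrenal cortex markers and none among 5 adipocyte markers. In KO kidneys 4 of the podocyte markers fell. The part of these cell types in the results was not tested, and the ratios do not show which markers are near 0.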

How the data were processed

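Total RNA from snap-frozen kidneys of 12 mice, 3 in each of 4 groups, was hybridised singly to Affymetrix Mouse Genome 430 2.0 arrays. The authors summarised the probes with RMA, per the submitters' processing notes, and deposited a linear ratio for each of 45101 probe sets. Each ratio is relative to the probe set's median over the 12 arrays: the median is 1, within 0.002, for 45099 probe sets, a division read from the values and not stated by the labels. Ratios keep no intensity, so signal over background is unknown and the number of arrays limits the precision.

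After 64 control probe sets were left out, 34945 probe sets with 1 symbol in the platform annotation gave 18193 genes; 932 with several symbols and 9160 with none were not averaged. The deposited ratios were turned to log2 and averaged per gene. Group means were fitted on all 12 arrays with limma 3.58.1 (lmFit and eBayes, no trend; R 4.3.3; 8 residual and 4.73 prior degrees of freedom), two-sided, with Benjamini-Hochberg adjustment over all genes, in 5 comparisons. The fit was tested on simulated data. The alternatives were single probe sets, 1 probe set per gene, means without the suffixes _s_at and _x_at, a variance trend, only the groups compared, quantile normalization, common medians, a replicate block, array weights, a filter on spread and leaving out each array. Named genes were the 10 largest called rises and falls per comparison, the lowest p of each complex, fixed paralogue groups and up to 3 genes per list; genes outside the rule, and the grouping by subunit role, were chosen after their values were seen. The members and lists were chosen with earlier results of these data known.

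The labels give the replicate numbers 1 to 3 no shared litter, batch or day. Between WT ANG II and WT baseline, arrays of the same number deviated together from their group means. The correlations were 0.228, 0.236 and 0.125, against -0.265 to 0.0587 for different numbers. A fit of the 6 WT arrays with the replicate block was therefore added after seeing the data. Whether the numbers pair these mice cannot be told from the same arrays. In no other pair of groups were all 3 correlations over 0.1, though WT baseline and KO ANG II had 0.235, 0.0253 and 0.287. Over all 18 same-number pairs they ran from -0.146 to 0.287.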

Additional observations from a re-analysis of the deposited data

Results flagged for a closer look

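The response to ANG II differed between genotypes, by the test of the difference itself (KO response minus WT response, log2, limma), for genes that all moved down in WT kidneys. The differences were 1.10 for Cox7a1, 0.97 for Cycs, 0.53 for Ndufb10, 0.48 for Atp5k, 0.46 for Ndufv3, 0.46 for Atp5o, 0.46 for Ndufc1, 0.45 for Atp5e, 0.42 for Ndufb6 and 0.42 for Uqcr10. Cox6b2 differed the other way, by -0.57, with a rise in WT kidneys. Their adjusted p-values ran from 0.000117 for Cycs to 0.0209 for Ndufb6. Uqcr10 was not called without KO ANG II replicate 3 (adjusted p = 0.0502). No other of these 11 lost its call when 1 array was left out, but other settings ended more calls. With 1 probe set per gene Atp5o (adjusted p = 0.0945) and Ndufb6 (0.0512) were not called. Atp5o was also not called without the suffixes _s_at and _x_at (0.0535). After quantile normalization Atp5e (0.0779) and Uqcr10 (0.0607) were not called.

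Signal was also seen in data left out of the gene means, the 10 probe sets that name a member together with another gene. Of these 10, 5 were called in WT kidneys and all 5 fell: -0.34 for the probe set of Ndufa11 and Ndufa11b, -0.40 for that of Ndufab1 and its pseudogene, -0.31 and -0.30 for a pair naming Ndufb4, Ndufb4b and Ndufb4c, and -0.27 for that of Ndufs5 and its pseudogene. Over all 45037 probe sets, 13.3% fell and 10.9% rose in WT kidneys. Ndufa11 has no value of its own among the 83 genes, and which transcript these 10 probe sets read cannot be told apart here.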

How the results depend on the processing

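No called change of a named gene and no median turned its sign under any alternative run. Some small changes that were not called, such as that of Cox6a2 in WT kidneys, did turn when single arrays were left out. The median log2 change of members in WT kidneys was -0.15 with 1 probe set per gene, -0.14 without the suffixes _s_at and _x_at and -0.30 with genes of low spread left out; the median difference of the responses was 0.37 with the last filter, and the median of KO ANG II minus WT ANG II was 0.21 with 1 probe set per gene and 0.28 with that filter. Fewer genes are tested under the filter, which removes those that vary least; the cause of the other shifts was not tested. With only the groups compared, 28 members were called in WT kidneys, 2 in KO kidneys and 22 between genotypes under ANG II, with fewer samples behind each spread. The difference of the responses called 19 members with 1 probe set per gene and 17 after quantile normalization, which called 22 between genotypes under ANG II. In KO kidneys 7 members were called by single probe sets, 7 without the 2 suffixes, 12 with array weights and 1 with the spread filter. Between genotypes at baseline, single probe sets called 1, the means without the suffixes 2 and array weights 1.

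Leaving out each array in turn gave 27 to 43 called members in WT kidneys, 0 to 7 in KO kidneys, 18 to 29 for the difference of the responses, 23 to 38 between genotypes under ANG II and 0 to 0 at baseline. Medians then ran from -0.20 to -0.16 in WT kidneys, 0.06 to 0.09 in KO kidneys, 0.23 to 0.26 for the difference, 0.15 to 0.19 under ANG II and -0.08 to -0.06 at baseline. With the replicate number as a block the counts were 44, 4, 27, 38 and 0, in the order WT, KO, difference, ANG II and baseline; it ended the named calls of Ndufa9 in KO kidneys (adjusted p = 0.058) and Cox6b1 for the difference (0.0697), and no other. The labels give no pairing, and the check of deviations cannot settle whether the numbers pair the 2 WT groups. With this replicate block on the 6 WT arrays alone, added after seeing the data, 27 members fell and 3 rose (30 in all). Atp5g2, Cox6b1, Cox6b2, Cox7a2 and Uqcr10 then lost their calls. Of the named calls, 13 of 25 in WT kidneys, 0 of 4 in KO kidneys, 9 of 19 for the difference and 11 of 20 between genotypes under ANG II were lost under no alternative.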

Other observations

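Cytosolic ribosomal protein genes, a list added after the values were seen, moved opposite to the mitochondrial ribosome. Of 49 measured, 23 rose and 1 fell in WT kidneys given ANG II (median log2 change 0.18), against the 10.9% and 15.6% of all genes. In KO kidneys 0 rose and 1 fell, against 5.82% and 7% of all genes. Rps27 (0.44) and Rps19 (0.44) of the small subunit rose most, while Rpl7l1, a homologue with a role in ribosome assembly, fell (-0.47). The median log2 ratio of the list was 0.106 to 0.157 on the WT ANG II arrays, against -0.0772 to 0.0052 on the WT baseline arrays, with no overlap. Between genotypes under ANG II, 26 of the 49 were lower and 1 higher in KO kidneys, against 10.4% and 15.2% of all genes.

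Of the 83 oxidative phosphorylation genes, 28 were called in none of the 5 comparisons, among them Cox4i1, Cox8a, Atp5a1 and Atp5b. The share of all genes called in none is not given here, so the 28 cannot be read as few or many.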
